A study of Mus musculus with 4 samples.

Results

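The genes described here are the 10 members of the immunoproteasome and peptide loading group: Psmb8, Psmb9, Psmb10, Psme1, Psme2, Tap1, Tap2, Tapbp, Tapbpl and Erap1. Each was found by its symbol on exactly 1 row among 56493 in the deposited gene table, and all 10 were among the 19638 genes kept for analysis. RNA was sequenced from fluorescence-sorted cells of the retina of wild-type mice. Their label is retinal ganglion cells, whose axons leave the eye in the optic nerve. Every mouse had first been given a vector based on adeno-associated virus (AAV2) by injection into the vitreous and, a month later, a crush of that nerve. In 2 libraries the vector was AAV2-CrAT, which carries carnitine acetyltransferase to overexpress it, and in the other 2 it was AAV2-MCS, a name the labels do not spell out. Both groups therefore carry a vector and the injury, and all their sample titles carry the tag NCd8. No strain, age, dose or number of pooled animals is given. The labels do not say that replicates came from separate animals, so the spread between them may be technical. The 10 genes were chosen by their measured differences in count between these same CrAT and MCS libraries, so those differences are given as a description and not as evidence. Wherever a pair of values is given for a group, replicate 1 comes before replicate 2.

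Cells display fragments of their own proteins on major histocompatibility complex (MHC) class I molecules. The proteasome, a barrel-shaped protease, cuts proteins into peptides. Under interferon its 3 catalytic subunits are replaced by inducible ones in newly made particles, which gives the immunoproteasome, and a cap of activator subunits can be added. Peptides then enter the endoplasmic reticulum through the TAP transporter, are trimmed there, and are loaded onto class I molecules with the help of tapasin. Most neurons of the healthy retina are known for low class I expression, and interferon is the classical inducer of the whole pathway.

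Depth was 24494253 to 27097438 counts per library. Values are CPM, counts as a share of library depth scaled by TMM, a library scaling factor that here ran from 0.970 to 1.02, or deposited FPKM where genes are compared with each other, since FPKM is per length of exon. Ganglion cell transcripts were few. The 9 markers listed summed to 192.7 and 255.9 CPM with CrAT and 135.5 and 182.6 CPM with MCS, and Pou4f1 and Pou4f2, which define these cells, were each at 0 in at least 1 library. The 7 rod markers summed to 41909 and 22122 CPM with CrAT and to 40872.5 and 23975 CPM with MCS. Replicate 2 was the lower in both groups, as it was for the sums of the cone and bipolar cell markers. The source of the RNA is therefore called sorted retinal cells below. In bulk RNA, fewer cells of a type and less RNA per cell cannot be told apart.

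The 10 genes together summed to 1423 and 1927 CPM with CrAT, and to 773.9 and 786.6 CPM with MCS. The means were 1675 ± 356 CPM and 780.2 ± 8.97 CPM (SD, n = 2 each), which is 2.15-fold. The MCS libraries lay close together, while the CrAT libraries lay apart, with replicate 2 the higher. All 10 genes had a positive log2 fold change, CrAT over MCS, from 0.32 for Tapbpl to 2.14 for Psmb9, with a median of 0.70. Over all genes kept the median was 0.0075, and 50.6% of genes were positive. In 7 members the CrAT values stood wholly above the MCS values, in none wholly below. The same order was seen in 15% of all genes, and the reverse order in 16.6%. The exceptions were Tap2, Tapbpl and Erap1, whose groups overlapped. In deposited FPKM the groups of Psmb10 and Psme1 overlapped as well. There CrAT replicate 1, at 44.5 and 46.1, lay below MCS replicate 2, at 45.1 and 47.9. Over all 19638 genes none passed an adjusted p of 0.05 in edgeR's quasi-likelihood test (0%), 815 had an unadjusted p under 0.05, of which 251 were higher in CrAT, and DESeq2 called 0.168% of genes as higher in CrAT. The members enter that fit with all other genes, and since this contrast chose them nothing is read from these tests about them.

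**Figure D1:**
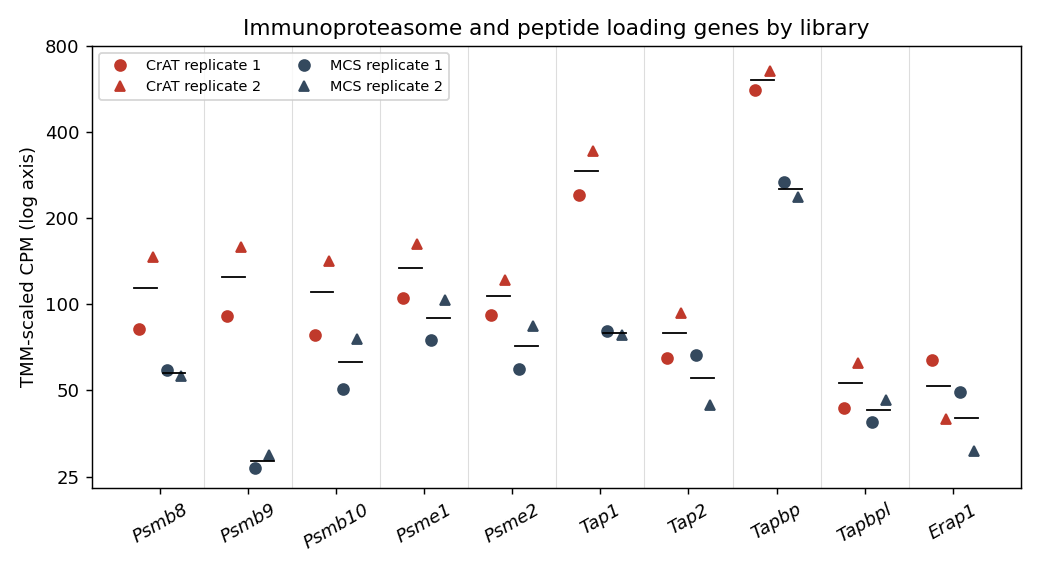
Level of each of the 10 genes in TMM-scaled CPM (log axis) in the 4 libraries. Circles are replicate 1 and triangles replicate 2, red is CrAT and blue is MCS, and black bars are group means. Psmb9, Tap1 and Tapbp show the widest gaps between the groups, and Erap1 shows 1 library of each group above and below.

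The inducible catalytic subunits come first in the pathway. Psmb9, which takes the place of the caspase-like subunit (ENSMUSG00000096727), was at 91.2 and 158.3 CPM with CrAT and at 26.8 and 29.7 CPM with MCS. The lowest CrAT library was 3.07-fold above the highest MCS library, the widest such gap of the 10 genes, and the log2 fold change was 2.14 (SE 0.36). Psmb8, the inducible subunit with chymotrypsin-like activity (ENSMUSG00000024338), was at 81.8 and 146.0 CPM with CrAT and at 59.0 and 56.1 CPM with MCS. Its groups also stood apart, but most of the difference lay in CrAT replicate 2, and the log2 fold change of 0.98 (SE 0.36) was 0.53 without that library. Psmb10, the inducible subunit with trypsin-like activity (ENSMUSG00000031897), was at 78.3 and 141.8 CPM with CrAT and at 50.5 and 75.4 CPM with MCS. CrAT replicate 1 and MCS replicate 2 nearly met, at a ratio of 1.04, and the log2 fold change of 0.81 (SE 0.39) fell to 0.33 without CrAT replicate 2. The 3 genes did not differ alike. The ratio of Psmb9 to Psmb8 in FPKM was 1.03 and 1.001 in the CrAT libraries and 0.419 and 0.489 in the MCS libraries. The ratio of Psmb10 to Psmb8, 1.90 and 1.93 with CrAT and 1.70 and 2.66 in MCS, overlapped between the groups.

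Each inducible subunit takes the place of a constitutive one in the particle, Psmb8 that of Psmb5, Psmb9 that of Psmb6 and Psmb10 that of Psmb7. None of these counterparts separated the groups. Psmb5 was at 167.1 and 200.2 CPM with CrAT and at 113.7 and 272.2 CPM with MCS, a log2 fold change of -0.07 (SE 0.45). Both CrAT libraries lay between the MCS libraries. Psmb6 was at 354.0 and 362.5 CPM with CrAT and 249.9 and 421.8 CPM with MCS, with 0.09 (SE 0.35). Psmb7 was at 83.2 and 72.5 CPM with CrAT and 48.9 and 84.4 CPM with MCS, with 0.22 (SE 0.35). All 3 were lowest in MCS replicate 1, where Psmb5 was 2.39-fold, Psmb7 1.73-fold and Psmb6 1.69-fold below MCS replicate 2. None passed edgeR's test, all with an adjusted p of 1.

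Set against its counterpart per length, Psmb9 was the only inducible subunit whose ratio separated the groups. Psmb9 to Psmb6 in FPKM was 0.132 and 0.223 in the CrAT libraries and 0.055 and 0.036 in the MCS libraries, 3.91-fold on average. Psmb8 to Psmb5 was 0.130 and 0.194 with CrAT and 0.138 and 0.055 in MCS. MCS replicate 1 thus lay within the CrAT range, since its Psmb5 was low, and the ratio was 1.68-fold on average with that library and 2.95-fold without it. Psmb10 to Psmb7 was 1.89 and 3.92 with CrAT and 2.07 and 1.79 in MCS. Here CrAT replicate 1 lay within the MCS range, and without CrAT replicate 2 the average of 1.504-fold turned to 0.977-fold. Psmb10 exceeded its counterpart in every library, while Psmb8 and Psmb9 stayed far below theirs. The 3 inducible genes together made up 19.2% and 27.9% of the FPKM of all 6 catalytic genes with CrAT, and 16.5% and 11.1% with MCS.

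**Figure D2:**
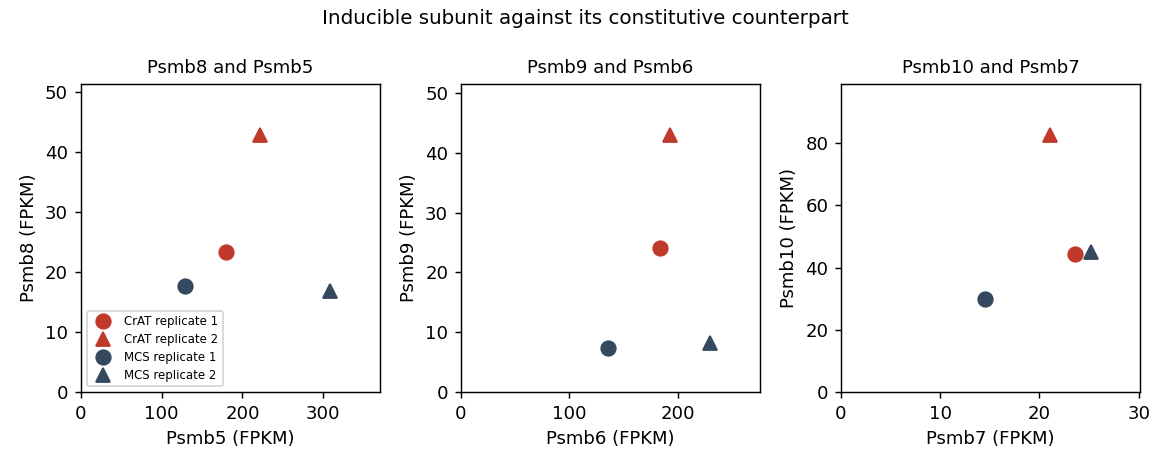
FPKM of each inducible subunit (vertical) against its constitutive counterpart (horizontal) in the 4 libraries, both axes starting at 0. Red is CrAT, blue is MCS, circles are replicate 1 and triangles replicate 2. Psmb9 sets the red points above the blue ones, while the horizontal spread is widest between the MCS libraries.

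The activator subunits Psme1 and Psme2 form a cap that opens the gate of the proteasome barrel. Psme1 (ENSMUSG00000022216) was at 105.0 and 163.0 CPM with CrAT and at 74.9 and 103.8 CPM with MCS. Psme2 (ENSMUSG00000079197) was at 91.9 and 122.0 CPM with CrAT and at 59.4 and 83.7 CPM with MCS. Replicate 2 was the higher in both groups, and CrAT replicate 1 lay only 1.01-fold above MCS replicate 2 for Psme1 and 1.10-fold for Psme2. The log2 fold changes were 0.59 (SE 0.35) and 0.58 (SE 0.32). The subunits sit together in the particle, and their FPKM ratio stayed between 0.912 and 1.07 in all 4 libraries. Both genes lie on chromosome 14, from 55815580 to 55818986 on the plus strand and from 55824898 to 55828570 on the minus strand in the deposited table, which names no build for its coordinates. Psme2 has a near-identical copy, Psme2b, on chromosome 11. In GENCODE M21 transcripts the longest Psme2 transcript of 962 bases aligned to it over 794 bases at 99.4% identity, so reads of both cannot be told apart there. With the counts of both added the log2 fold change was 0.58. A pseudogene, Gm7928, aligned over 721 bases at 90.4%.

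The TAP transporter is built from Tap1 and Tap2 in equal parts. Tap1 (ENSMUSG00000037321) was at 240.3 and 343.8 CPM with CrAT and at 80.6 and 78.4 CPM with MCS. The lowest CrAT library was 2.98-fold above the highest MCS library, and the log2 fold change was 1.88 (SE 0.32). Tap2 (ENSMUSG00000024339) was at 64.8 and 93.5 CPM with CrAT and at 66.4 and 44.5 CPM with MCS. CrAT replicate 1 lay just below MCS replicate 1, so the groups overlapped, with a log2 fold change of 0.51 (SE 0.34). Per length, Tap1 was 2.56-fold and 2.54-fold the level of Tap2 in the CrAT libraries and 0.838-fold and 1.21-fold in the MCS libraries. The partners were thus at like levels in MCS and unequal in both CrAT libraries.

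Psmb9 and Tap1 had the largest fold changes of the group and are neighbours transcribed away from each other. On chromosome 17 of the deposited table Psmb9 spans 34400961 to 34406738 (minus strand) and Tap1 spans 34406527 to 34416199 (plus strand). Their annotated exons share 212 bases on opposite strands. The library kit does not mark strand, so reads in that stretch cannot be assigned to 1 gene. In RefSeq's GRCm38.p6 annotation, unlike in the deposited table, the genes do not overlap at their starts, which are 225 bases apart. That shared stretch, chr17:34187331-34187555 on the plus strand, is all that separates the RefSeq starts of both genes. It is shown with the matches of all motifs searched in capitals.
Tap1 and Psmb9, between start sites: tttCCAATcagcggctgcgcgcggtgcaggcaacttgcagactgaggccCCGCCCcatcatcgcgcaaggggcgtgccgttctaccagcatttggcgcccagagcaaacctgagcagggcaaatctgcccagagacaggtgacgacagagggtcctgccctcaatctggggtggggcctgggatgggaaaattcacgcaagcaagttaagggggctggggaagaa
It holds a CCAAT box and a GC box (GGGCGG, read here on the other strand).

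The next largest fold changes belonged to Tapbp and Psmb8, whose 250 bases before the start site are shown for comparison, Tapbp at chr17:33919228-33919477 and Psmb8 at chr17:34197945-34198194, both on the plus strand of GRCm38.p6.
Tapbp: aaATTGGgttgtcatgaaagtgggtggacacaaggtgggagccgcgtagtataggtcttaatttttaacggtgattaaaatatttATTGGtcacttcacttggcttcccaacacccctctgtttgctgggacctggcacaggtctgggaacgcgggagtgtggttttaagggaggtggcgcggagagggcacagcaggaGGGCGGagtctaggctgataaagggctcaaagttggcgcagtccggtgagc
Psmb8: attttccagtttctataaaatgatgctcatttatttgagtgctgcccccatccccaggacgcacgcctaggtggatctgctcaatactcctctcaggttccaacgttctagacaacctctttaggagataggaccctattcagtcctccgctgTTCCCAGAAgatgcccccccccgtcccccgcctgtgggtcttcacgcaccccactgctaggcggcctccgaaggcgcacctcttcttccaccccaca
The Tapbp stretch holds a pair of CCAAT boxes, read on the other strand, and a GC box, and that of Psmb8 holds TTCCCAGAA, a match to the motif GAS. RefSeq windows were found for 8 of 10 members by symbol, 9 windows in all since Psme2 has a pair of start sites. Motifs were sought on both strands in the 250 bases before the start. The core of the interferon-stimulated response element, GAAA repeated after 2 bases of any kind, was in 0 of 9 member windows and in 2.98% of all 32851 windows. GAS (TTCNNNGAA) was in 1 of 9 and in 7.02% of all, and the kappaB consensus in 0 of 9 and in 5% of all. The CCAAT box was in 3 of 9 against 33.8%, and the GC box in 6 of 9 against 32.7%. The 3 windows with a CCAAT box include both of the overlapping windows of Psmb9 and Tap1, which share the same box. Those windows also share 1 GC box, and both windows of Psme2 share another, so the 6 windows with a GC box come from 4 separate stretches. These counts say which letters stand in these windows and nothing about factors that bind there or elsewhere.

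Tapasin (Tapbp) holds class I molecules at the transporter until a peptide fits, and its relative Tapbpl edits peptides away from the transporter. Tapbp (ENSMUSG00000024308) was the most abundant of the 10 genes, at 562.2 and 656.3 CPM with CrAT and at 268.0 and 238.1 CPM with MCS. Both groups were tight and lay apart, with the lowest CrAT library 2.10-fold above the highest MCS library and a log2 fold change of 1.27 (SE 0.30). Between 30.3% and 39.5% of the group's summed CPM came from this gene, and the other 9 genes summed to 2.02 times as much in CrAT as in MCS. Tapbpl (ENSMUSG00000038213, chromosome 6) was at 43.6 and 62.5 CPM with CrAT and at 38.9 and 46.3 CPM with MCS. Its groups overlapped, and the log2 fold change of 0.32 (SE 0.32) was the lowest of the 10 genes. The FPKM ratio of Tapbp to Tapbpl was 8.37 and 6.80 with CrAT and 4.46 and 3.33 in MCS.

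Erap1, the peptidase that trims peptides in the endoplasmic reticulum (ENSMUSG00000021583, chromosome 13), did not follow the others. It was at 63.97 and 39.7 CPM with CrAT and at 49.5 and 30.6 CPM with MCS. Replicate 2 was the lower in both groups, at 0.620-fold and 0.619-fold of replicate 1, and the groups overlapped. The log2 fold change was 0.37 (SE 0.39), and -0.012 without CrAT replicate 1. In CrAT the 9 other members were higher in replicate 2 than in replicate 1, from 1.17-fold for Tapbp to 1.81-fold for Psmb10. In MCS 5 members were higher in replicate 2 and 5 lower. Erap1 shares 834 exon bases with Cast on the opposite strand.

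Per length, Tapbp stood first and Erap1 last in both groups, at mean FPKM of 164.9 and 6.96 with CrAT and of 70.9 and 5.59 in MCS. In MCS the next places were taken by Psme2 and Psme1, at 41.3 and 41.1, and Psmb10 at 37.6, whose libraries overlapped. Below them came Tapbpl at 18.4, Psmb8 at 17.3, Tap2 at 14.9 and Tap1 at 14.8, of which Tap2 spread from 12.01 to 17.8 across its neighbours. Psmb9, at 7.85, stood below all of these and above Erap1 alone. In CrAT Psmb9 was at 33.5, next to Psmb8 at 33.2, and Tap1 was at 52.4, below Psmb10, Psme1 and Psme2 at 59.6 to 63.5. Tapbp and Erap1 were the only genes whose CrAT libraries lay apart from those of their neighbours in this order.

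Other genes overlap members in the table. Gm19412, an antisense RNA gene, shares 1053 exon bases with Tapbp, and its count was between 0.123 and 0.133 of the Tapbp count in all 4 libraries. Gm20496 shares 498 exon bases with Psmb8 and 165 with Tap2, and its count was between 0.461 and 0.515 of that of Psmb8. These rows cannot be told from their partners without strand. With their counts added the log2 fold change was 1.26 for Tapbp and 0.95 for Psmb8. Gm15821 shares 533 exon bases with Tap2, at 0.264 to 0.289 of its count.

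Of the members 5, Psmb8, Psmb9, Tap1, Tap2 and Tapbp, lie on chromosome 17 within the MHC region, and these include the 4 with the largest fold changes. The genes kept within 100000 bases of a member were described as well, since position played no part in choosing the members. On chromosome 17 there were 36 of them. The 9 rows named H2 hold class I and class II chains or chaperones of class II loading. All stood wholly higher with CrAT (15% of all genes did), with a median log2 fold change of 1.52. H2-K2 fills 2 of the 9 rows, at overlapping positions, with 0.26 (SE 0.34) and 0.30 (SE 0.35). H2-DMb2 had few counts, 13 and 13 with CrAT against 7 and 1 with MCS. Splitting the H2 rows off was decided after the values were seen. The other 27 had a median of 0.03, with 3 in that order and 7 in the reverse (15% and 16.6% of all genes). The 3 were Gm20496 and Gm19412, which overlap members, and AA388235. Away from chromosome 17, 48 neighbours of the other members had a median of 0.05. Of these, 12 stood wholly higher with CrAT and 9 wholly lower (15% and 16.6% of all genes). Irf9, a neighbour of Psme1 and Psme2 that is described below, was among the 12. None of the 84 neighbours passed edgeR's test over all genes.

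**Figure D3:**
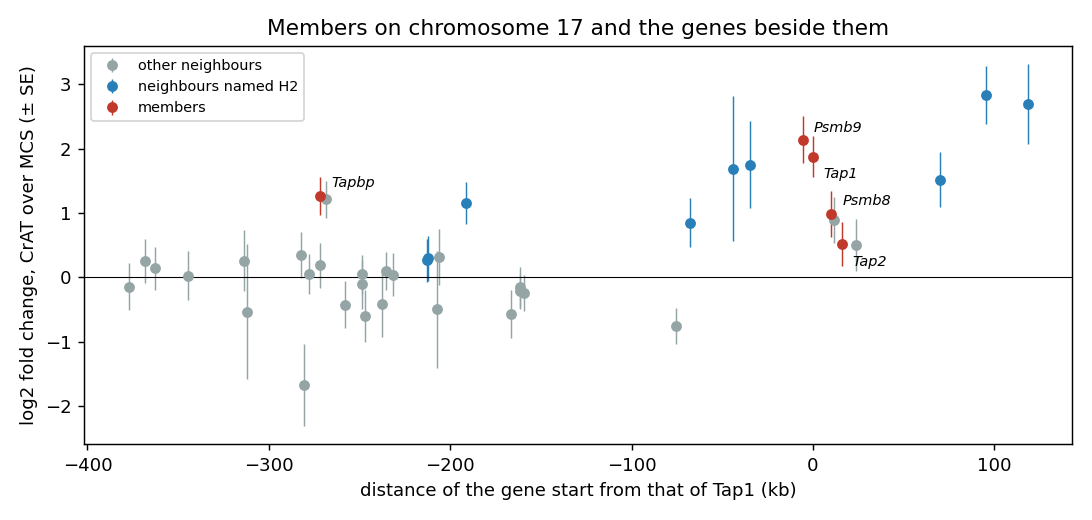
Log2 fold change, CrAT over MCS, with its SE for the members on chromosome 17 (red) and the genes kept within 100000 bases of one of them, by distance of the gene's lowest coordinate from that of Tap1 in kilobases. Blue genes are named H2 and gray ones are not. Around Tapbp, at the left, most gray genes lie near 0.

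The rest of the pathway was set beside the members in lists of genes by role. Of 71 such genes kept, none passed an adjusted p of 0.05 in edgeR, 10 had an unadjusted p under 0.05, and DESeq2 called 5. Over all 19638 genes kept these numbers were 0, 815 and 54. Of the 10, 3 were class I chains and 6 were regulators of class I genes. The 5 were 1 class I chain and 4 regulators. The lists were chosen with earlier results of these data known. All 11 structural subunits of the core barrel overlapped between the groups, with a median log2 fold change of 0.15. Psma4 and Psma3, the members of that list with the smallest p, both had 0.25 (SE 0.30 and 0.32). Of 18 subunits of the regulatory particle that feeds proteins into the barrel, 5 stood wholly higher with CrAT (15% of all genes did) and the median was 0.16. Among them Psmd2 had 0.53 (SE 0.29) and the deubiquitinase Psmd14 had 0.49 (SE 0.28). These medians rested on MCS replicate 1. The core list summed to 1784 CPM there and to 2394 to 2755 CPM in the other 3 libraries, and without that library the medians were -0.12 for the core and -0.08 for the regulatory particle. The median of the 10 members was 0.80 without it and 0.70 with it.

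Among 7 other activators and assembly factors the median was -0.05. Psme4, a proteasome activator that works without ubiquitin, was at 8.59 and 11.4 CPM with CrAT and at 20.3 and 25.5 CPM with MCS, a log2 fold change of -1.20 (SE 0.37), opposite in sign to Psme1 and Psme2. It stood wholly lower with CrAT, but the difference did not pass over all genes (edgeR, adjusted p = 1). Pomp, which assembles new proteasomes, had 0.23 (SE 0.29). Of the 6 chaperones that fold and hold class I molecules the median was 0.21. Calr, calreticulin, had 0.47 (SE 0.31) with both CrAT libraries above, and Pdia4 had -0.59 (SE 0.33) with both below. Among 6 other peptidases that trim or destroy peptides the median was 0.06, with Blmh at 0.65 (SE 0.34) and Thop1 at -0.36 (SE 0.30).

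The molecules that receive the peptides were higher in both CrAT libraries. The class I heavy chain H2-D1 was at 3271 and 3572 CPM with CrAT and at 1265 and 1251 CPM with MCS. H2-K1 was at 1129 and 1570 CPM against 600.7 and 612.3 CPM, and the light chain B2m at 996.5 and 1114 CPM against 700.1 and 553.3 CPM. The log2 fold changes were 1.44 (SE 0.31), 1.15 (SE 0.32) and 0.75 (SE 0.31). Reads of H2 genes can be shared with near-identical copies. Of 10 regulators of class I genes 6 stood wholly higher with CrAT (15% of all genes did), with a median of 0.99. That list was chosen with earlier results of these data known. Irf9, a subunit of a transcription factor that interferon activates, was at 240.7 and 220.0 CPM against 83.6 and 96.9 CPM. Nlrc5, the transactivator of class I genes, named here after its values were seen, was at 37.7 and 40.8 CPM against 11.02 and 4.24 CPM. The log2 fold changes were 1.35 (SE 0.28) and 2.36 (SE 0.52). In the same list Rfx5, Rfxap and Rfxank, which bind class I and class II promoters, lay between -0.04 and 0.26.

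Interferon receptors and their kinases had a median of 0.09 over 7 genes, with Jak1 at 0.42 (SE 0.28) and Ifngr1 at -0.43 (SE 0.40). Of the interferons 4 were read. Ifng, Ifnb1, Ifnl2 and Ifnl3 had 0 counts in all 4 libraries, which allows up to 0.109 to 0.126 CPM in a library (3 counts, for counting error only).

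**Figure D4:**
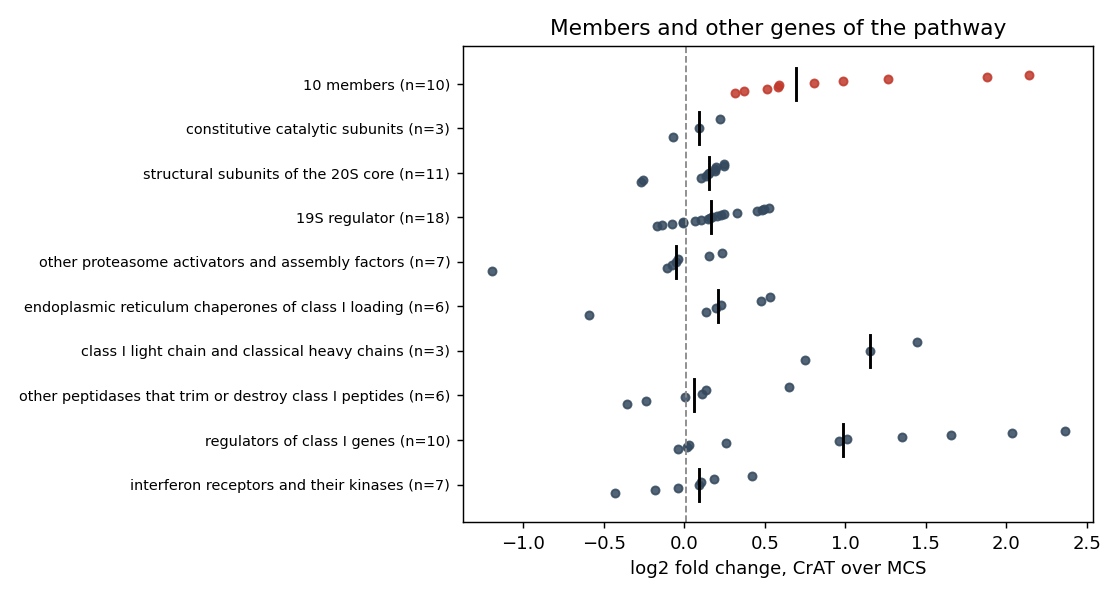
Log2 fold change, CrAT over MCS, of the 10 members (red) and of the genes kept in each pathway list (blue), with list medians as black bars and the median of all genes kept as a dashed line. The members, the class I chains and the regulators reach furthest to the right, and the medians of the proteasome lists sit close to the line. Psme4, among the other activators and assembly factors, lies furthest to the left at -1.20.

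Markers of cells that a retinal sort could hold were read in the same libraries. Microglia and macrophage markers, 8 of 10 kept, summed to 30.5 to 33.9 CPM with CrAT and 35.2 to 36.1 CPM with MCS. The general leukocyte gene Ptprc had 1 and 3 counts with CrAT and 8 and 2 in MCS. The 7 leukocyte markers, of which Itgb2 and Ikzf1 were at 0 in a library, summed to 4.94 and 24.8 CPM with CrAT and 6.23 and 17.8 CPM with MCS. Coro1a alone made up most of this in every library, at 3.69 and 22.9 CPM with CrAT and 4.02 and 15.2 CPM with MCS. Of the 8 T and NK cell markers, Cd3e, Cd3d, Cd3g and Nkg7 were at 0 in all 4 libraries, and the sum was 6.34 to 9.43 CPM with CrAT and 2.17 to 9.37 CPM with MCS. Ms4a1 of B cells was also at 0 in all 4. The 5 markers of B and plasma cells summed to 13.9 and 4.90 CPM with CrAT and 14.3 and 8.37 CPM with MCS. Jchain made up most of this in every library, at 13.6 and 4.87 CPM with CrAT and 14.2 and 8.33 CPM with MCS. The markers of dendritic cells and monocytes summed to 7.25 to 14.8 CPM with CrAT and 11.1 to 11.3 CPM with MCS. Endothelial markers, of which Cdh5 and Erg were at 0 in all 4 libraries, summed to 335.5 to 429.4 CPM with CrAT and 412.0 to 838.3 CPM with MCS. Most of that sum came from Kdr, whose groups overlapped, and from Flt1. Flt1 stood wholly lower with CrAT, at 79.2 and 51.0 CPM against 243.7 and 205.9 CPM with MCS, a log2 fold change of -1.79 (SE 0.34). Pecam1 and Ly6c1, of the same list, stood wholly higher with CrAT at few counts, Pecam1 with 37 and 25 counts against 10 and 15 with MCS, and Ly6c1 with 46 and 23 against 7 and 0. Mueller glia markers moved with the group, opposite in sign to the members. All 10 had a negative log2 fold change, and their sums were 6393 to 8237 CPM with CrAT and 11963 to 13437 CPM with MCS. Astrocyte markers also summed lower, to 499.5 and 351.9 CPM with CrAT against 738.0 and 532.3 CPM with MCS, and the 4 kept of 5 had a negative log2 fold change. The 6 amacrine cell markers had a positive one, with a median of 0.47. Their sums overlapped between the groups, at 808.3 and 2168 CPM with CrAT and 690.3 and 1315 CPM with MCS, and were highest in CrAT replicate 2, where 9 of the 10 members were highest too. The ganglion cell marker sums given above stood wholly higher with CrAT, with the nearest libraries at 192.7 CPM and 182.6 CPM. Of the 8 ganglion cell markers kept, 6 had a positive log2 fold change and 2 a negative one, and all 8 overlapped between the groups. The part of these marker differences in the members' values was not tested.

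By the shape of their values over the 4 libraries, the genes nearest to the mean of the members were Prepl, Lynx1, Necab1, Pnma2, Brinp1 and Kcnab1. Likeness was measured as the Euclidean distance of log2 CPM centred over the 4 libraries, among genes averaging 3 log2 CPM or more, and ran from 0.050 for Prepl to 0.141 for Kcnab1. Prepl, the nearest, was at 256.5 and 350.4 CPM with CrAT and at 157.4 and 166.9 CPM with MCS. The members themselves lay at 0.275 for Psmb8 to 1.19 for Psmb9 from their own mean, with Erap1 at 1.11 and Tap1 at 0.932. These 6 genes matched the mean of the members more closely than any member did. They were the nearest of 10523 genes ranked, set against only 10 members, so a closer match was all but fixed by that number. Nothing about the members is read from it, and 4 libraries give few ways for profiles to differ.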

How the data were processed

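RNA of 4 libraries of sorted mouse retinal cells, 2 CrAT and 2 MCS, was sequenced, and groups follow the sample titles. Per the labels' protocols, RNA was taken with a Qiagen micro kit and cDNA by a SMART-seq kit for low input that does not mark strand. Of tools, the submitters' processing notes list the aligner STAR 2.7.2b, and of builds GRCm38.p6 and mm10. For the read counter and the annotation nothing is given in the sources used here. Deposited by the authors were whole-number gene counts and FPKM per gene. The counts are called estimated counts here, because counts computed back from FPKM and gene length, within 0.5 of the deposited ones, were not whole within 0.02 for 43.6% to 44.9% of values above 0. No build is named for the tables' coordinates, per the file headers. Each table held 2 columns, 4 in all, of other samples, which were not used.

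Genes were kept by edgeR's filterByExpr and scaled by TMM. Fold changes and adjusted p-values (Benjamini-Hochberg over all genes, threshold 0.05, two-sided) come from edgeR 4.0.16's quasi-likelihood test (robust, with group alone in the model) and 2 residual degrees of freedom, in R 4.3.3. DESeq2 1.42.0 was an alternative. SE is the fold change over the square root of F. Exact permutation tests of 2 against 2 cannot go below 0.333 and were not used. Near copies were sought with blastn 2.17.0 (at least 85% identity over 50% of the longest transcript). Promoter sequences are RefSeq's, GRCm38.p6.

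The members and all lists were chosen with earlier results of these data known. Named were the members, their counterparts, the 2 genes with the smallest p of each pathway list (all of a list of 3), overlapping genes and copies, the 6 nearest profiles and defining markers at 0, except 2 genes that are not reported here. Alternatives were other scaling, no filter, DESeq2, a replicate block and leaving out each library.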

Additional observations from a re-analysis of the deposited data

How the results depend on the processing

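The number of members with non-overlapping groups was 7, was 5 with library totals only, and was 8 to 9 when a library was left out. In the last case 1 library stood for its group, and groups then part more readily in any gene. The share of all genes without overlap is not given for these settings, so 8 to 9 cannot be read as a wider separation. The summed level was 1.85-fold to 2.47-fold when a library was left out, against 2.15-fold with all 4. No gene passed an adjusted p of 0.05 in edgeR, with DESeq2 size factors, with library totals or when a library was left out (0 to 0). Without the filter on low counts 2 genes passed, none of them a member. In DESeq2's own test 54 genes passed, and 3 members, which is no evidence about genes chosen on this contrast. With the replicate number as a block 0 genes and 0 members passed. The labels share only a number between groups. Deviations of the same replicate number correlated at 0.39 over genes, and the design does not pair them.

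Leaving out each library in turn moved the median log2 fold change of the 10 members between 0.45, without CrAT replicate 2, and 1.02, without CrAT replicate 1. The range was 0.53 to 1.34 for Psmb8, 1.71 to 2.49 for Psmb9, 0.33 to 1.17 for Psmb10, 0.25 to 0.87 for Psme1, 0.36 to 0.85 for Psme2, 1.62 to 2.11 for Tap1, 0.25 to 0.83 for Tap2, 1.17 to 1.38 for Tapbp, 0.051 to 0.55 for Tapbpl and -0.012 to 0.76 for Erap1, the only member to change sign. The ratio to the constitutive counterpart, CrAT over MCS, ranged from 1.17 to 2.95 for Psmb8, 2.90 to 4.93 for Psmb9 and 0.977 to 2.03 for Psmb10. List medians ranged from -0.23 to 0.68 for constitutive catalytic subunits, -0.12 to 0.50 for the core, -0.076 to 0.44 for the regulatory particle, -0.31 to 0.35 for other activators and assembly factors, -0.10 to 0.56 for chaperones, -0.16 to 0.21 for other peptidases, -0.024 to 0.093 for interferon receptors, 0.92 to 1.37 for class I chains and 0.66 to 1.19 for regulators. The cause was not tested. Depth limits what can be said of the genes with 0 counts, which have only the upper limits given with them.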
